A study of Mus with 15 samples.

Results

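Angiotensin and endothelin receptors with their RGS regulators were followed through 7 transcripts in the abdominal aorta of mice: Agtr1a (ENSMUST00000066412), Agtr1b (ENSMUST00000068316), Ace (ENSMUST00000001963), Ednra (ENSMUST00000034029), Ednrb (ENSMUST00000022718), Rgs2 (ENSMUST00000027603) and Rgs5 (ENSMUST00000027997). They were taken from a fixed list of identifiers with 1 transcript per gene, and all 7 were found in each of the 15 libraries, out of 108027 Ensembl transcripts held by every library. The gene names come with that list. No file used here pairs transcript identifiers with gene names, so the names were not checked. This applies above all to ENSMUST00000027603, which is called the transcript listed as Rgs2 below, and whose values belong to the identifier.

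All mice were young adult male wild-type C57BL/6 mice treated for 14 days, with 5 mice in each of 3 groups. Control mice received saline by osmotic pump, and AngII mice received AngII (angiotensin II) at 500 ng/kg/min by the same route. Both were given water by gavage. AngII+QDG mice received the same AngII dose and Qingda granule (QDG, a formula of 4 dried herbs) at 1.145 g/kg/day by gavage. The description fields of the AngII mice rise from 500 to 504 ng/kg/min from mouse to mouse, while their treatment fields all give 500. Each library is 1 mouse, and the tissue is the whole dissected aorta, in which fewer cells of a type and less RNA per cell cannot be told apart. Markers of smooth muscle, endothelium, fat and other cells were not analysed here, because no names could be matched to their transcripts.

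Angiotensin-converting enzyme, encoded by Ace, sits mainly on endothelial cells and cuts angiotensin I to AngII. AngII acts on type 1 receptors, of which the mouse has a pair of genes, Agtr1a and Agtr1b, and in vascular smooth muscle these couple to Gq, calcium release and contraction. Endothelin acts in parallel through Ednra, a constrictor receptor of smooth muscle, and Ednrb, which on endothelium favours nitric oxide release and endothelin clearance. RGS proteins speed up the GTP hydrolysis of G protein alpha subunits and so end receptor signals. Rgs2 is known for its action on Gq and for a part in blood pressure, and Rgs5 is a marker of pericytes and arterial smooth muscle.

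In the RefSeq annotation of GRCm38, the build to which the authors aligned the reads, Agtr1a spans chr13:30336356-30382867 and Agtr1b chr3:20314473-20367177. Ace spans chr11:105967948-105989964. Ednra spans chr8:77663029-77724452 and Ednrb chr14:103814615-103844508. Rgs2 spans chr1:143999338-144004149 and Rgs5 chr1:169655501-169695813. Strand and exon positions of the 7 transcripts were not used here. The annotation lists 4 transcripts each for Agtr1a and Ednrb, 3 for Ace and 2 for Rgs5. It lists 1 each for Agtr1b, Ednra and Rgs2. Only 1 transcript per gene was read, so the levels below are those of single transcripts.

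The values are FPKM, that is fragments per kilobase of transcript, scaled to the mapped fragments of a library, as deposited. Summed FPKM per mouse ran from 454587 to 547311. Absolute depth is unknown, and the estimate of relative depth from low values was 1.13 times as high in the deepest library as in the shallowest. The Control and AngII mice rest on a list of 126719 transcripts and the AngII+QDG mice on another list of 125443. The list and QDG treatment therefore cannot be told apart, and comparisons with AngII+QDG mice were limited to Ensembl transcripts of both lists.

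None of the 7 transcripts was called as changed between groups by the rules used. Even at the largest background share given below, 0.629 of 7 members would be called, so counts of 0 lie at the background and set the members apart in no way. In AngII vs. Control, 0 of 7 had an adjusted p below 0.05 (limma, Benjamini-Hochberg over 27327 transcripts), against 0.00732% of all transcripts tested. An unadjusted p below 0.05 was reached by 0 of 7 (background 4.75%), and 0 of 7 combined it with a fold change of at least 2 (background 1.5%). The 5 and 5 mice overlapped for every member, and 0.732% of all transcripts tested did not overlap. The median log2 fold change of FPKM + 1 was 0.07 over the 7 members and 0.02 over all transcripts tested. The smallest unadjusted p, that of Agtr1a, was 0.444 in the limma fit.

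QDG given with AngII also left the members without a call. In AngII+QDG vs. AngII, 0 of 7 had an adjusted p below 0.05 (background 1.73% of 21081 transcripts tested), 0 of 7 an unadjusted one (7.86%), 0 of 7 passed the combined rule (3.53%) and 0 of 7 had groups that did not overlap (2.86%). Ace had the smallest unadjusted p, 0.381 in the limma fit. In AngII+QDG vs. Control the counts were again 0 of 7, where the same calls took in 1.81%, 8.98%, 3.64% and 3.24% of 21250 transcripts. Ace and Ednrb had the smallest unadjusted p there, both 0.236 in the limma fit. Each group of 5 mice, Control included, enters 2 of the 3 comparisons, so that any 2 comparisons share a group. A 2-sided exact permutation test of each member in each comparison (21 tests) gave p between 0.238 and 0.992, unadjusted, where 5 mice against 5 allow 0.00794 at the least.

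A p that misses the threshold does not show that values were equal, so the intervals are given. On the log2(FPKM + 1) scale, 20 of the 21 intervals of 95% lay within a 2-fold change in either direction. The other was that of Agtr1a in AngII+QDG vs. AngII, from 0.641-fold to 2.03-fold. This scale compresses low transcripts. With 0.1 added in place of 1, 19 of 21 intervals lay within a 2-fold change, and Ednrb in AngII vs. Control then ran from 0.647-fold to 2.19-fold. With 1 added, the widest intervals were those of Agtr1a and Ednrb. With 0.1 added, Agtr1b (0.617-fold to 1.803-fold) and the transcript listed as Rgs2 (0.684-fold to 1.909-fold) had wider ones than Agtr1a (0.571-fold to 1.305-fold) in AngII vs. Control. The interval of Ace was the narrowest there on both scales, 0.851-fold to 1.302-fold with 1 added.

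**Figure D1:**
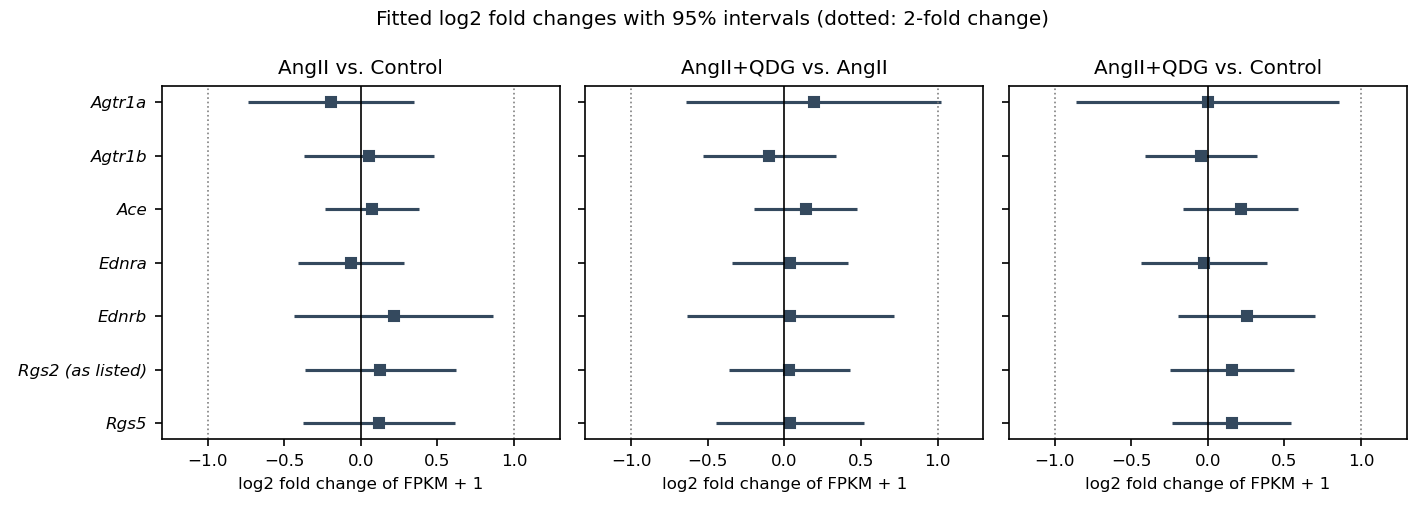
Fitted log2 fold changes of FPKM + 1 (x axis) of the 7 transcripts (y axis) in the 3 comparisons, with squares for the estimates, lines for 95% intervals and dotted lines at a 2-fold change. Every interval crosses 0, and only that of Agtr1a in AngII+QDG vs. AngII passes a dotted line.

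Levels differed far more between the genes than between the groups. Per kilobase, Rgs5 was highest, with a median of 294 FPKM over the 15 mice, rank 162 among 23914 expressed Ensembl transcripts (5 or more mice at 1 FPKM or above). Ace (median 17.2 FPKM) and Agtr1a (9.82) followed, then Ednra (5.10), Ednrb (2.16), the transcript listed as Rgs2 (2.02) and Agtr1b (1.04). Within a mouse, the order Rgs5, Ace, Agtr1a, Ednra, Ednrb held in 15 of 15 mice. The last steps were not as firm, since Ednrb was above the transcript listed as Rgs2 in 11 of 15 mice, and the latter was above Agtr1b in 13 of 15. The ranges over all mice overlapped for every neighbouring pair in this order except Rgs5 and Ace.

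**Figure D2:**
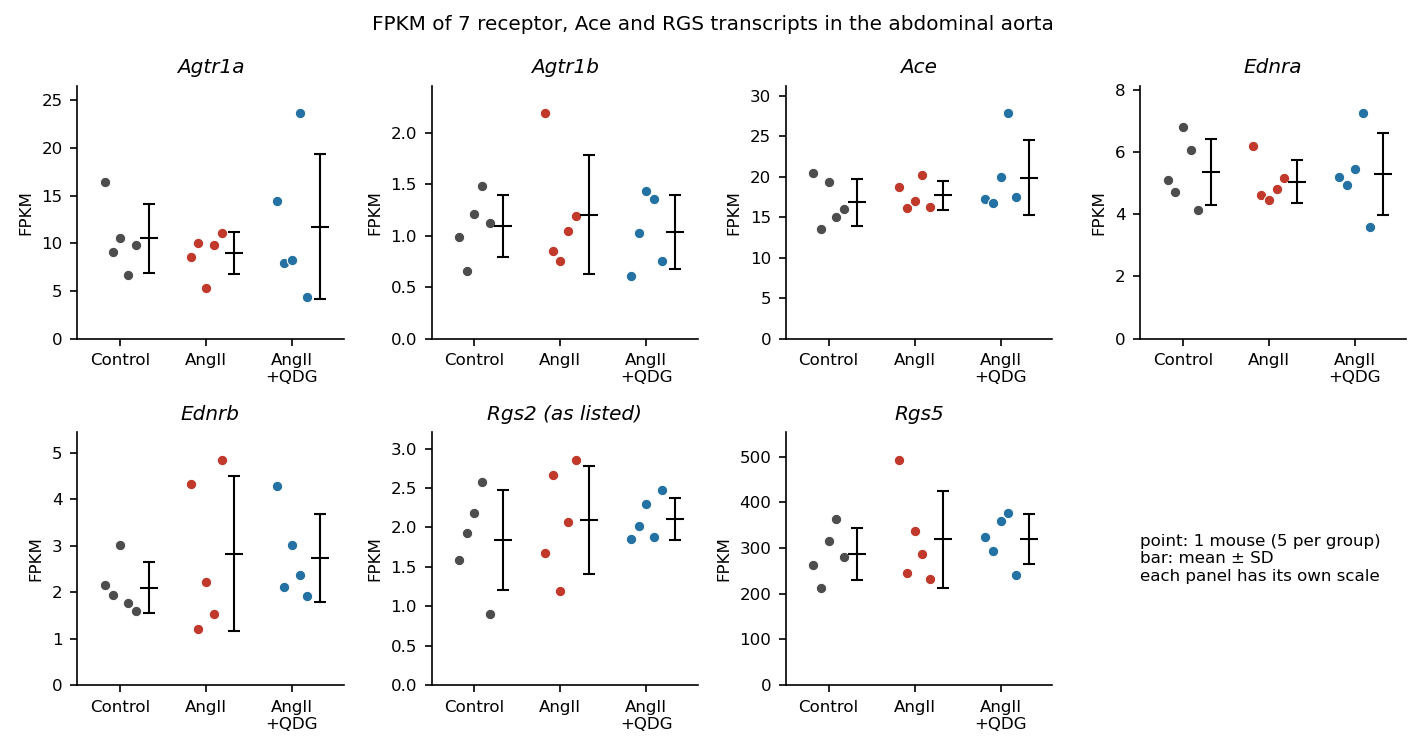
FPKM (y axis, from 0, with a scale of its own in each panel) of the 7 transcripts by group (x axis), with 1 point per mouse and the mean ± SD of 5 mice beside the points. The 3 groups overlap in every panel, and single mice such as AngII+QDG mouse 3984 for Agtr1a (23.6 FPKM) and AngII mouse 3988 for Agtr1b (2.19 FPKM) stand above the rest.

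In the following, values are given in the order of mice 3996, 4000, 4086, 3971 and 3994 for Control, 3988, 3989, 3986, 3987 and 4048 for AngII, and 3981, 3982, 3983, 3984 and 3985 for AngII+QDG.

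Ace, the enzyme that makes AngII, had FPKM of 20.4, 13.5, 19.3, 14.99 and 16.03 in Control mice. In AngII mice it was 18.7, 16.2, 16.9, 20.2 and 16.2. In AngII+QDG mice it was 17.2, 16.7, 19.95, 27.8 and 17.5. All 5 AngII mice fell inside the Control range, and a single AngII+QDG mouse, 3984, lay above it. The means were 16.9 ± 2.90 (SD, n = 5) in Control, 17.7 ± 1.78 (SD, n = 5) in AngII and 19.8 ± 4.64 (SD, n = 5) in AngII+QDG mice. Its residual SD was higher than that of 10.99% of transcripts tested in AngII vs. Control, 20.4% for AngII+QDG vs. AngII and 27.8% for AngII+QDG vs. Control. Its log2 fold change was 0.07 in AngII vs. Control (standard error 0.14, limma adjusted p = 0.995). It was 0.14 in AngII+QDG vs. AngII (standard error 0.15, limma adjusted p = 0.977), and 0.0158 without mouse 3984. Relative to Control, the AngII+QDG value of 0.21 (standard error 0.17, limma adjusted p = 0.861) became 0.09 without that mouse and 0.10 with libraries scaled by their upper quartile.

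Agtr1a, one of the type 1 receptor genes, had FPKM of 16.4, 9.05, 10.6, 6.66 and 9.82 in Control mice. AngII mice had 8.51, 9.97, 5.31, 9.84 and 11.02. AngII+QDG mice had 14.5, 7.91, 8.23, 23.6 and 4.31. The AngII+QDG group thus held both the highest and the lowest mouse of all 15, and its coefficient of variation was 64.9%, against 34.5% in Control and 24.8% in AngII mice. The log2 fold change was -0.19 in AngII vs. Control (standard error 0.24, limma adjusted p = 0.995). It was -0.0307 without Control mouse 3996 and -0.0389 without AngII mouse 3986. In AngII+QDG vs. AngII it was 0.19 (standard error 0.38, limma adjusted p = 0.996), and it was -0.10 without mouse 3984. The residual SD of Agtr1a exceeded that of 77.1% of transcripts tested in AngII+QDG vs. AngII. The share was 77.3% in AngII+QDG vs. Control and 48.2% in AngII vs. Control.

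Agtr1b, the second type 1 receptor gene, was near 1 FPKM and passed that value in 3 mice of each group. Its FPKM was 0.989, 0.660, 1.21, 1.48 and 1.121 in Control mice. The AngII mice were at 2.19, 0.849, 0.752, 1.04 and 1.19. The AngII+QDG mice were at 0.611, 1.03, 1.43, 1.35 and 0.757. AngII mouse 3988 was the highest of all mice, and without it the log2 fold change of AngII vs. Control moved from 0.05 to -0.09. Neither value passed the test (limma adjusted p = 0.998 with all mice). Agtr1a and Agtr1b are close homologues, and how the authors' quantification shared out fragments that match both was not tested.

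Ednra, the constrictor endothelin receptor, had FPKM of 5.10, 4.69, 6.80, 6.05 and 4.12 in Control mice. With AngII, the values were 6.17, 4.61, 4.45, 4.82 and 5.17. With AngII+QDG, the values were 5.19, 4.92, 5.44, 7.24 and 3.57. The 3 group means, 5.35 ± 1.07 (SD, n = 5), 5.04 ± 0.686 (SD, n = 5) and 5.27 ± 1.32 (SD, n = 5), lay closer to each other than 1 SD. The log2 fold change was -0.06 in AngII vs. Control (standard error 0.16). With QDG it was 0.04 relative to AngII (standard error 0.17) and -0.03 relative to Control (standard error 0.19). In AngII vs. Control, the 95% interval ran from 0.753-fold to 1.22-fold.

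Ednrb, the second endothelin receptor, had FPKM of 2.16, 1.95, 3.02, 1.76 and 1.60 in Control mice. The AngII group had 4.34, 1.21, 2.22, 1.54 and 4.86. The AngII+QDG group had 4.28, 2.11, 3.01, 2.36 and 1.92. The AngII mice spread to both sides, with 2 mice above every Control mouse and 2 below every Control mouse, and their coefficient of variation was 58.7%, against 26.5% in Control mice. The mean was 1.35 times the Control mean in AngII mice and 1.304 times in AngII+QDG mice. The log2 fold change of AngII+QDG vs. Control, 0.25 (standard error 0.20), did not pass the test (limma adjusted p = 0.861; exact permutation test, p = 0.238, unadjusted). It was 0.12 without mouse 3981. The log2 fold change of AngII vs. Control was 0.21 (standard error 0.29, limma adjusted p = 0.995), and it was 0.0328 without mouse 4048 and 0.0662 without mouse 3988.

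Rgs5 had FPKM of 263, 213, 316, 364 and 279.6 in Control mice. Under AngII it was 494, 244, 337, 287 and 233. Under AngII+QDG it was 324, 294, 360.0, 377 and 240.3. AngII mouse 3988 stood above all other mice, and the remaining AngII mice fell inside the Control range. The means were 287 ± 56.8 (SD, n = 5) in Control, 319 ± 106 (SD, n = 5) in AngII and 319 ± 54.5 (SD, n = 5) in AngII+QDG mice. The log2 fold change of AngII vs. Control was 0.12 (standard error 0.22, limma adjusted p = 0.995), and it was -0.05 without mouse 3988. With QDG it was 0.04 relative to AngII (standard error 0.22, limma adjusted p = 0.999). Relative to Control it was 0.16 (standard error 0.17, limma adjusted p = 0.930).

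The transcript listed as Rgs2 had FPKM of 1.58, 1.93, 2.18, 2.58 and 0.907 in Control mice. AngII mice had 1.67, 2.67, 1.20, 2.07 and 2.86. AngII+QDG mice had 1.85, 2.02, 2.299, 1.88 and 2.47. Its values were closest together in AngII+QDG mice, with a coefficient of variation of 12.8%, against 34.6% in Control and 32.9% in AngII mice. The log2 fold change was 0.13 in AngII vs. Control (standard error 0.22, limma adjusted p = 0.995) and 0.03 in AngII+QDG vs. AngII (standard error 0.18, limma adjusted p = 0.999). In AngII+QDG vs. Control it was 0.16 (standard error 0.18, limma adjusted p = 0.937).

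Whether the balance between paired receptors shifted was looked at within each mouse, as a ratio of FPKM that does not depend on the scaling of a library. Agtr1a was above Agtr1b in 15 of 15 mice, with a median ratio of 8.76 in Control (range 4.503 to 16.6), 9.26 in AngII (3.88 to 11.7) and 7.69 in AngII+QDG mice (5.70 to 23.7). Ednra was above Ednrb in 15 of 15 mice as well, with a median ratio of 2.41 in Control (2.25 to 3.44), 2.01 in AngII (1.06 to 3.81) and 1.86 in AngII+QDG mice (1.21 to 3.07). The ratio was close to 1 in AngII mouse 4048, where the listed transcripts of both endothelin receptors had nearly the same FPKM. Rgs5 was set against Ednra in the same way, and the median ratio was 51.6 in Control, 59.5 in AngII and 62.5 in AngII+QDG mice. The mean log2 ratio of Ednra to Ednrb differed by -0.33 between AngII and Control mice (exact permutation test, p = 0.381) and by -0.39 between AngII+QDG and Control mice (exact permutation test, p = 0.151). For Agtr1a to Agtr1b, the exact permutation p was 0.492 for AngII vs. Control, 0.492 for AngII+QDG vs. AngII and 0.857 for AngII+QDG vs. Control. For Rgs5 to Ednra, it was 0.341, 0.984 and 0.175 in the same order of comparisons. None of the 9 differences passed the test, and the smallest Benjamini-Hochberg adjusted value of the 9 permutation tests was 0.738. The ratios were chosen after the single values had been seen. They compare 1 transcript per gene, while RefSeq lists 4 for Agtr1a and Ednrb and 1 for Agtr1b and Ednra. Which receptor gene was higher over all its transcripts was not tested.

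**Figure D3:**
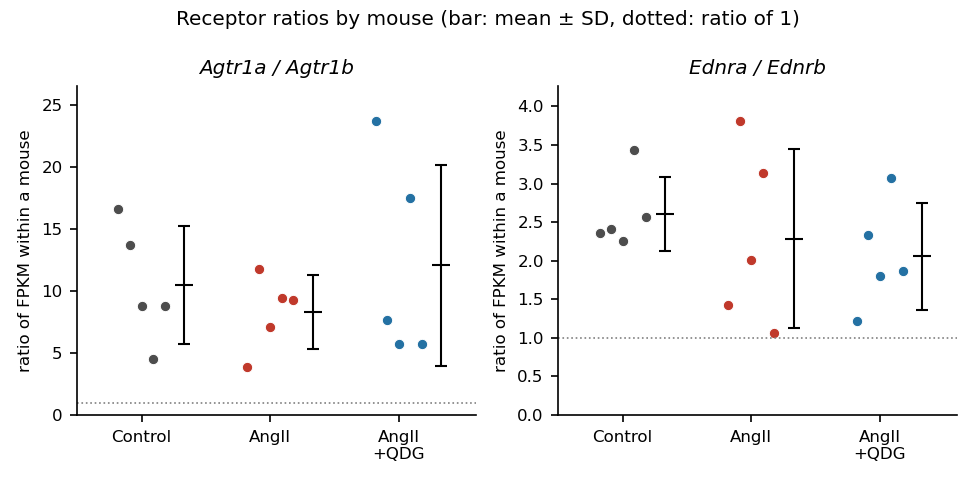
Ratio of Agtr1a to Agtr1b (left) and of Ednra to Ednrb (right) within each mouse (y axis, FPKM over FPKM) by group, with 1 point per mouse, the mean ± SD beside the points and a dotted line at a ratio of 1. All points lie above 1, and the Ednra to Ednrb ratios of AngII mice run from 1.06 to 3.81, wider than those of Control mice (2.25 to 3.44).

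In each group, including Control, single mice were the highest or the lowest for several members at a time. AngII+QDG mouse 3984 was the highest of its group for 4 of 7 members, namely Agtr1a (2.93 times the median of the other 4 mice), Ace (1.60 times), Ednra (1.43 times) and Rgs5 (1.22 times). It was the highest of its group in 24.7% of all 23906 expressed transcripts. AngII mouse 3988 was the highest of its group for Agtr1b (2.32 times the median of the other 4), Rgs5 (1.86 times) and Ednra (1.31 times), and the highest in 16.0% of expressed transcripts. AngII mouse 3986 was the lowest of its group for Agtr1a, Agtr1b, Ednra and the transcript listed as Rgs2, and the lowest in 25.3% of expressed transcripts. AngII+QDG mouse 3985 was lowest for Agtr1a, Ednra, Ednrb and Rgs5, against 20.6%. AngII mouse 4048 was highest for 3 members (Agtr1a, Ednrb and the transcript listed as Rgs2), against 31.1%. Among Control mice, 3971 was highest for 3 members (25.7% of expressed transcripts), and 4000 and 3994 were each lowest for 3 (21.9% and 32.2%). The cellular makeup of these aortas was not tested as a source of these differences.

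**Figure D4:**
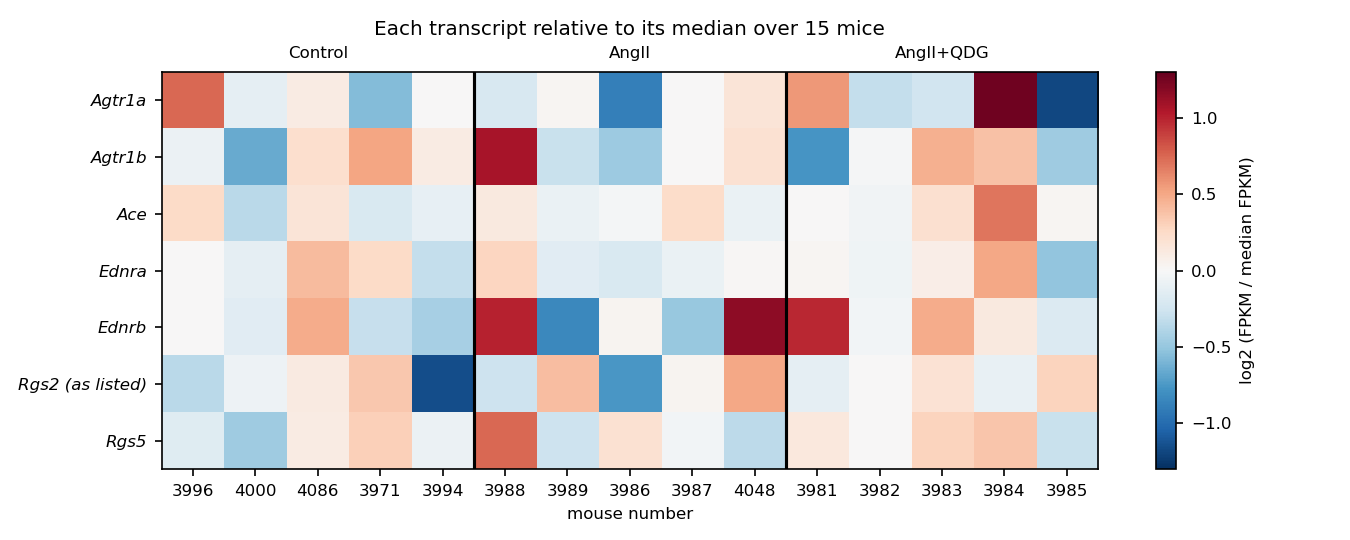
FPKM of each transcript (rows) in each mouse (columns, with groups separated by black lines), as log2 of the ratio to the median of that transcript over 15 mice (colour scale, red above and blue below the median). Red and blue cells occur in all 3 groups, and mouse 3984 is red for Agtr1a, Ace and Ednra while mouse 3985 is blue for Agtr1a and Ednra.

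Likeness between members across the mice was described by Pearson's r and Spearman's rho of log2(FPKM + 1) over 15 mice, for 21 pairs. Of these, 18 (85.7%) had an r above 0, while of the 23913 other expressed transcripts 47.4% to 59.7% had one, depending on the member. The pairs share members and are not independent, so this is a description. The highest r was that of Agtr1b and Rgs5, with r = 0.72 (permutation test, p = 0.00283) and rho = 0.58 (permutation test, p = 0.0246). It did not pass adjustment over the 21 pairs (permutation test, Benjamini-Hochberg adjusted p = 0.0594 for r and 0.129 for rho). Without the 2 mice farthest from the median of Agtr1b, 3981 and 3988, r was 0.69, and without the 2 farthest from the median of Rgs5 it was 0.41. Among 23913 other expressed transcripts, Rgs5 ranked 46 in likeness to Agtr1b. The median of Agtr1b was 1.04 FPKM, a level at which log2(FPKM + 1) compresses values. The same limit applies to its pair with Ednra below.

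Ednra and Rgs5 had r = 0.63 (permutation test, p = 0.0119) and rho = 0.66 (permutation test, p = 0.00936), with adjusted values of 0.0939 and 0.0983 over the 21 permutation tests each. Without mice 3984 and 3985, the farthest from the median of Ednra, r was 0.55. Over the 10 Control and AngII mice, which share 1 transcript list, r was 0.54 for Ednra and Rgs5 and 0.79 for Agtr1b and Rgs5. The 5 AngII+QDG mice are too few for a value of their own. Agtr1b and Ednra had r = 0.62 (permutation test, p = 0.0134) and rho = 0.66 (permutation test, p = 0.00819), with adjusted values of 0.0939 and 0.0983. Their r was 0.70 without mice 3981 and 3988, 0.60 without the 2 mice farthest from the median of Ednra, and 0.66 over the 10 Control and AngII mice. For Agtr1a and Ednra (r = 0.56, rho = 0.42, permutation p = 0.0288 and 0.120, adjusted 0.121 and 0.419), r was 0.05 without mice 3984 and 3985 and 0.04 over the 10 Control and AngII mice, so that this relation rests on those mice. For Agtr1a and Ace (r = 0.58, rho = 0.38, permutation p = 0.0263 and 0.161, adjusted 0.121 and 0.423), r was 0.32 without them and 0.44 over the 10 Control and AngII mice. For Ace and Ednra (r = 0.53, rho = 0.42, permutation p = 0.0443 and 0.115, adjusted 0.155 and 0.419), r was 0.23 without mice 3984 and 4000, the farthest from the median of Ace, and 0.30 over the 10 Control and AngII mice. Agtr1a and Agtr1b showed little likeness (r = 0.09, rho = 0.004, permutation p = 0.738 and 0.995). In all, 6 of 21 pairs had an unadjusted permutation p below 0.05 for r and 0 of 21 an adjusted one. By rho, 4 of 21 had an unadjusted permutation p below 0.05 and 0 of 21 an adjusted one. Among these 4 was the pair of endothelin receptors, Ednra and Ednrb (rho = 0.61, r = 0.41, permutation p = 0.0175 and 0.131, adjusted 0.122 and 0.344). The 6 pairs by r (28.6%) had an r above 0.5, against 2.47% to 14.9% of the other expressed transcripts, depending on the member. Whether these shares differ was not tested. The 2 values of a mouse come from 1 library and 1 dissection. The transcript listed as Rgs2 had r between -0.22 and 0.18 with the other members.

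**Figure D5:**
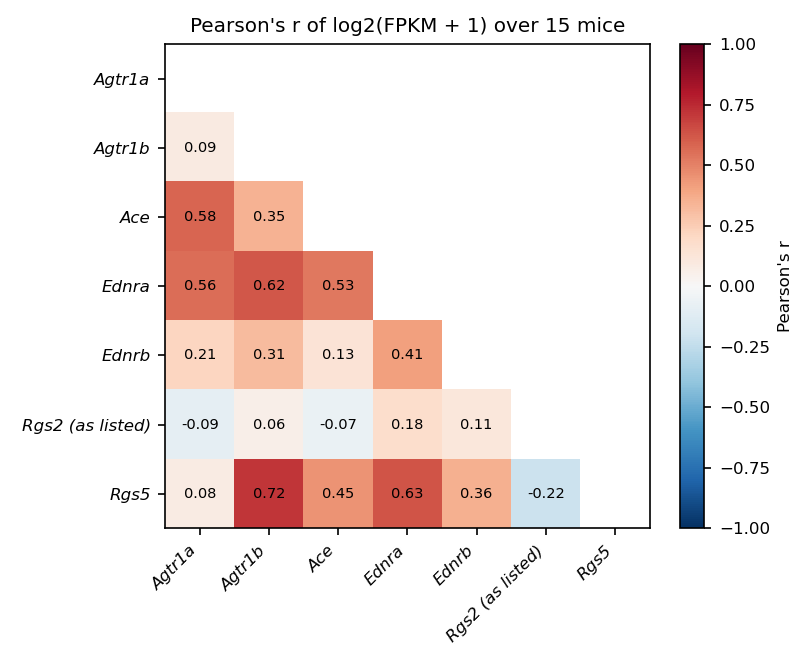
Pearson's r of log2(FPKM + 1) over 15 mice for the 21 pairs of members (rows and columns), with blue below 0 and red above. Rgs5 has its highest values with Agtr1b (0.72) and Ednra (0.63), and the row of the transcript listed as Rgs2 stays between -0.22 and 0.18.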

How the data were processed

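FPKM per transcript was analysed for the abdominal aorta of 15 mice, 5 per group by the group field of the labels. The authors filtered reads with NGSQC, aligned them with HISAT2 to GRCm38/mm10, and assembled and quantified transcripts with StringTie. The deposited FPKM values carry no unit in their headers, which was taken from these methods and the values. The labels name rRNA depletion, and the methods add poly(A) selection.

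The members and lists were chosen with earlier results of these data known. For each comparison, limma 3.58.1 (lmFit, eBayes with trend) in R 4.3.3 was fitted to log2(FPKM + 1) of its 10 mice, after a filter that kept transcripts at 1 FPKM or above in 5 or more mice, and p-values were adjusted over all of them. All 7 members passed this filter in every comparison. The limits of a fold change of 2 and p below 0.05 are those of the study, which applied them with another tool, made for counts. Here they were applied to the limma fit. The fit was tested on simulated data and the exact test on constructed values. Exact permutation tests used SciPy 1.17.1, and correlations 100000 resamples. Figures were drawn with matplotlib 3.10.9.

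All 7 members were to be named, with genes of renin-angiotensin, endothelin, RGS and receptor coupling lists, cell type markers and the transcripts most like each member. The lists and the likest transcripts could not be named, since identifiers were not paired with genes, and are not analysed here. Alternatives were another pseudocount, 2 other filters, all groups in 1 fit, scaling by the upper quartile, shared Ensembl transcripts, FPKM without log, removal of group means, 3 ratios within a mouse (chosen after seeing the data) and leaving out each mouse. Depth in reads is unknown, so no interval covers counting error, and precision rests on 5 mice per group.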

Additional observations from a re-analysis of the deposited data

Results flagged for a closer look

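For the 7 members and the 3 ratios, each of the 3 groups was searched for a mouse that stood apart from the remaining 4. Of these 30 sets of 5 values 1 held such a mouse, where chance gives about 1.5 (1 in 20) for normally distributed values. The ratios reuse values of the members, so the sets are not independent. The ratio of Ednra to Ednrb was 3.44 in Control mouse 3971, and its gap to the next mouse was 0.735 of the range of the Control group, above the limit of 0.71. That mouse had Ednra and Ednrb of 6.05 and 1.76 FPKM, both inside the range of the other Control mice. Just below the limit were Ace in AngII+QDG mouse 3984 (0.709) and Agtr1b in AngII mouse 3988 (0.696).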

How the results depend on the processing

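No alternative brought a member past a test: 0 of the members tested were called in each comparison by the 3 rules on limma p-values under the alternatives run, and 0 by the exact permutation test on FPKM without log. Overlap of the groups was not recounted under the alternatives. The smallest unadjusted p of 317 recomputed log2 fold changes was 0.114 (smallest limma adjusted p = 0.765). Of these, 283 kept their sign and 34 changed it, 29 of them on leaving out 1 mouse. With all mice, the log2 fold changes that changed sign were at most 0.19 in size.

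Scaling by the upper quartile changed 5 signs in AngII+QDG vs. AngII, to -0.0035 for Ace, -0.0888 for Ednra, -0.0656 for Ednrb, -0.0645 for the transcript listed as Rgs2 and -0.11 for Rgs5. It moved the median of all transcripts there from -0.0032 to -0.12, and relative to that median 6 of 7 members were higher under both scalings. It moved 9 other values by over 1.5 times without a change of sign, 5 toward 0 and 4 away from it. In AngII+QDG vs. AngII, Agtr1a went from 0.19 to 0.061 and Agtr1b from -0.0978 to -0.1722. For AngII+QDG vs. Control it moved Ace from 0.21 to 0.10, the transcript listed as Rgs2 from 0.16 to 0.0815 and Rgs5 from 0.16 to 0.0402. Adding 0.1 in place of 1 moved 7 values by over 1.5 times, all away from 0.

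Leaving out each mouse gave ranges across 0 for 13 of the 21 log2 fold changes and ranges on 1 side of 0 for 8. Those across 0 were, in AngII vs. Control, -0.0882 to 0.13 for Agtr1b (below 0 without 4000 or 3988), -0.14 to 0.0154 for Ednra (above 0 without 4086), -0.0079 to 0.24 for the transcript listed as Rgs2 (below 0 without 3994) and -0.0538 to 0.22 for Rgs5 (below 0 without 3988). In AngII+QDG vs. AngII they were -0.10 to 0.46 for Agtr1a (below 0 without 3984), -0.17 to 0.0442 for Agtr1b (above 0 without 3988), -0.0696 to 0.14 for Ednra (below 0 without 3984) and -0.13 to 0.22 for Ednrb (below 0 without 3989, 3987 or 3981). They were -0.0852 to 0.12 for the transcript listed as Rgs2 (below 0 without 3988, 3986 or 3985) and -0.0594 to 0.21 for Rgs5 (below 0 without 3989, 4048, 3983 or 3984). In AngII+QDG vs. Control they were -0.29 to 0.26 for Agtr1a (above 0 without 3996, 4086, 3982, 3983 or 3985), -0.12 to 0.036 for Agtr1b (above 0 without 3971, 3981 or 3985) and -0.13 to 0.0804 for Ednra (above 0 without 4086, 3971 or 3985). The ranges on 1 side of 0 were, in AngII vs. Control, 0.0041 (without 4000) to 0.14 for Ace, -0.33 to -0.0307 (without 3996) for Agtr1a and 0.0328 (without 4048) to 0.38 for Ednrb. The range of AngII+QDG vs. AngII was 0.0158 (without 3984) to 0.19 for Ace. Those of AngII+QDG vs. Control were 0.09 (without 3984) to 0.28 for Ace, 0.12 (without 3981) to 0.35 for Ednrb, 0.023 (without 3994) to 0.25 for the transcript listed as Rgs2 and 0.055 (without 4000) to 0.25 for Rgs5. The cause was not tested.

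Where every mouse had to reach 1 FPKM, Agtr1b was not among the transcripts tested, nor was the transcript listed as Rgs2 in comparisons with Control. Sums per gene were not run, since identifiers were not paired with genes.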
